A study of Homo sapiens with 12 samples.

Results

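Daunorubicin (DNR) alone was compared with its vehicle in HL-60 cells by RNA-seq, using the 6 of 12 libraries that carry the labels DNR or DMSO. HL-60, an established line of human leukemia cells, came from an acute myeloid leukemia (AML). The tested cells received 1 µM DNR for 3 h, and the control cells received dimethyl sulfoxide (DMSO) for the same 3 h, with 3 replicates in each group. Per the study's methods these replicates came from independent experiments, and no genetic modification is named for either group. The other 6 libraries came from cells given the SUMO inhibitor ML-792 with or without DNR. They entered the gene filter, the scaling, the shared estimate of the spread between replicates and an interaction fit given at the end.

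DNR is an anthracycline used in AML therapy. It intercalates into DNA and traps topoisomerase II on the breaks that this enzyme makes, and it can also displace histones and produce oxygen radicals. Breaks in DNA activate kinases that signal to NF-kB and p53, while stress-activated MAP kinases act on AP-1 and ATF factors. HL-60 cells are known to lack p53. Transcripts with short half-lives, such as those of early response genes and MYC, follow a change in transcription within hours, whereas stable transcripts follow slowly.

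The 6 libraries held 31.4 to 46.5 M (mega) reads in genes and a read in 18465 to 19236 genes each. Transcripts encoded by mitochondrial DNA took 6.27% of the reads in DNR replicate 1 and 4.01% in DMSO replicate 1, against 2.55% to 3.48% in the other 4 libraries, and the part of this share in the results was not tested. The first principal component carried 66.8% of the variance and separated the groups, with scores of −46.5 to −22.5 in DNR and 32.9 to 36.1 in DMSO, and DNR replicate 2 lay nearest to the DMSO libraries. All 8 markers of granulocytic and myeloid cells that served to check the line were detected, with CEBPA lower in DNR, and their summed level was 10633 to 11193 CPM (counts per M reads, scaled by TMM) in DNR and 11483 to 12748 CPM in DMSO. Markers of T and NK cells summed to at most 14.5 CPM in DNR and 9.95 to 14.9 CPM in DMSO, with CD3E and TRAC at 0 in all 6 libraries, and markers of B cells to 7.35 to 10.9 CPM in DNR and 9.65 to 14.1 CPM in DMSO, with MS4A1 and IGHM at 0.

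Within 3 h of DNR more transcripts rose than fell at least 2-fold, while without a fold minimum 1953 rose and 2155 fell. Of 13696 tested genes, 557 (4.07%) rose and 399 (2.91%) fell, together 6.98% of those tested (edgeR quasi-likelihood test, calls throughout require an adjusted p under 0.05 by Benjamini-Hochberg together with 2-fold or more). The median log2 fold change over all tested genes was 0.01, and 51.2% of them had a log2 change above 0. Among the genes that rose, 187 did so at least 4-fold and 32 at least 16-fold, whereas 55 genes fell at least 4-fold and 3 at least 16-fold. The DNR and DMSO libraries did not overlap for 545 of the genes that rose and 397 of those that fell, beside 46.6% of all tested genes in either direction.

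Most of the genes that rose were weakly expressed in vehicle-treated cells. Their median level in DMSO was 0.820 CPM, and 298 of them (53.5%) lay under 1 CPM, whereas the genes that fell had a median of 5.35 CPM and all tested genes one of 19.9 CPM in DMSO. DMSO is the lower group for genes that rose and the higher one for genes that fell, so this contrast is partly built in. In DNR, 168 of the 399 genes that fell lay under 1 CPM. The count filter could also admit a gene near 0 in DMSO through DNR alone. The transcripts that rose made up 0.986% of all CPM in DNR and 0.322% in DMSO, and those that fell 0.414% in DNR and 1.07% in DMSO. The plot of all tested genes shows that large rises were found at low levels and that the rises among abundant transcripts were smaller. DNR replicate 2 was the library nearest to DMSO for 394 of the 557 genes that rose (70.7%) and for 230 of the 399 that fell (57.6%), and without it 674 genes rose and 458 fell. With replicates 2 and 3 of each group only, which leaves out the pair with the high mitochondrial share, 304 rose and 264 fell. That fit also has fewer libraries, and leaving out DMSO replicate 3 alone gave 495 and 353. The part of the mitochondrial share in the lower counts was not tested.

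**Figure D1:**
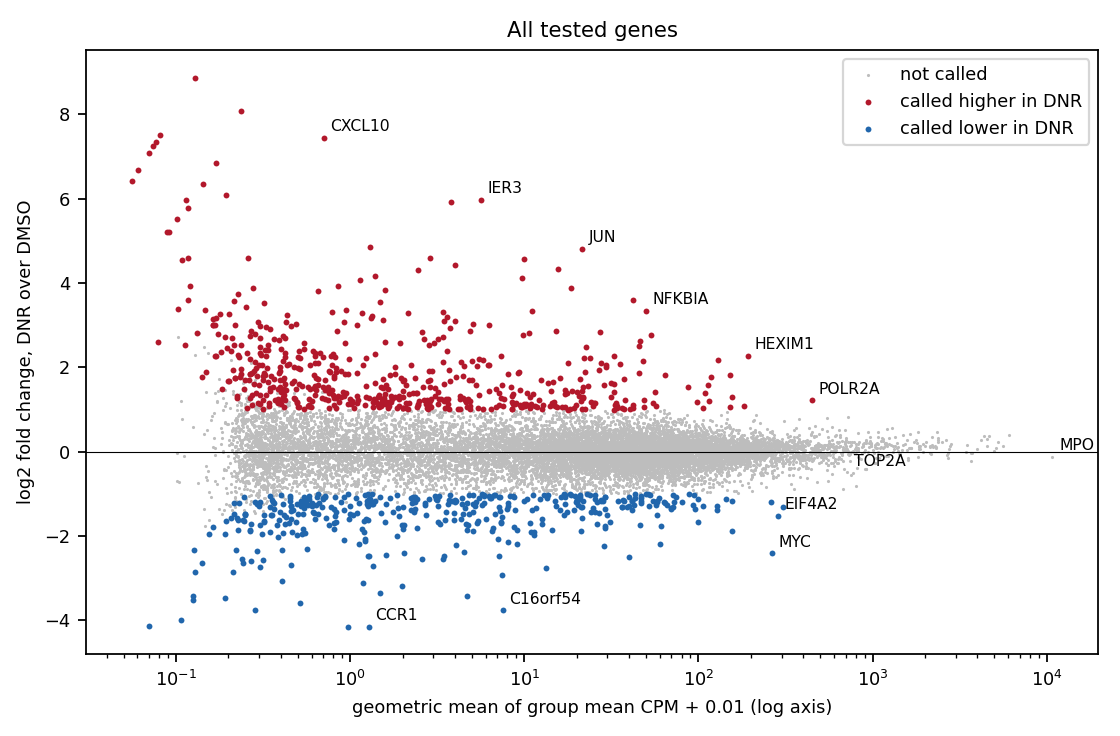
Log2 fold change of DNR over DMSO (vertical axis) against the geometric mean of the 2 group means in CPM plus 0.01 (horizontal log axis) for the 13696 tested genes, 1 point per gene. Red points are the 557 genes that rose and blue points the 399 that fell. The strongest rises lie at low levels, where a fitted change depends on a few reads, while POLR2A and MYC stand out among abundant transcripts.

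In absolute terms the largest gain was that of POLR2A, which encodes the largest subunit of RNA polymerase II (chromosome 17, 7387685 to 7417933 on GRCh37). It had 798, 633 and 618 CPM in DNR replicates 1, 2 and 3, against 313, 286 and 283 CPM in the DMSO replicates, a log2 change of 1.22 ± 0.13 (± SE here and for every log2 change, adjusted p = 2.21e-05). HEXIM1, whose protein holds the elongation kinase P-TEFb in an inactive complex, reached 489, 324 and 454 CPM in DNR, against 87.5, 85.7 and 87.9 CPM in DMSO (log2 2.28 ± 0.17, adjusted p = 9.94e-07). For both genes every DNR library exceeded every DMSO library, with little scatter among the DMSO libraries. The mRNA export receptor NXF1 rose to 287 ± 84.3 CPM in DNR, against 81.0 ± 4.13 CPM in DMSO (SD, n = 3 each, log2 1.83 ± 0.21). FAM53C averaged 273 CPM in DNR and 60.7 CPM in DMSO (log2 2.17 ± 0.13), and RSRP1, an arginine- and serine-rich protein gene, 246 CPM in DNR and 99.8 CPM in DMSO (log2 1.30 ± 0.13). The antiproliferative gene TOB2 and the chemokine receptor gene CXCR4 were also among the 10 largest gains, with log2 changes of 1.08 ± 0.07 and 1.58 ± 0.12.

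Most elongation genes were not called. Among 35 tested genes of transcription elongation, 5 rose, 0 fell and the median log2 change was 0.18. Besides POLR2A and HEXIM1 these were CCNL1, a cyclin of splicing and transcription kinases (219.9 CPM in DNR, 105 CPM in DMSO), and the elongation factors ELL2 (log2 1.66 ± 0.13) and ELL3 (log2 1.04 ± 0.16).

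The largest loss was that of MYC, the oncogenic transcription factor (chromosome 8, 128747680 to 128755197). Its level was 81.5, 146 and 117 CPM in the DNR replicates, against 519.8, 725 and 584 CPM in the DMSO replicates (log2 −2.41 ± 0.28, adjusted p = 4.16e-05). EIF4A2, which encodes an RNA helicase of translation initiation, followed with 133, 221 and 149.8 CPM in DNR, against 502, 481 and 462 CPM in DMSO (log2 −1.52 ± 0.19, adjusted p = 6.93e-05). The splicing factor gene SRSF6 had 161, 234 and 187 CPM in DNR, against 489, 489 and 467 CPM in DMSO (log2 −1.31 ± 0.13). All 3 genes fell without overlap between groups, and DNR replicate 2 kept the highest level of the DNR libraries in each. SRSF6 was the only member called among 33 tested SR protein and CLK kinase genes, whose median log2 change was −0.13. MYC was the only member of the 12 tested MYC and MAX network genes that fell, while its antagonist MXD1 rose to 79.4, 67.8 and 70.0 CPM in DNR, against 15.9, 15.1 and 13.6 CPM in DMSO (log2 2.28 ± 0.13). MYCL, a MYC paralog with a low level, also rose (0.742 CPM in DNR, 0.113 CPM in DMSO). Ribosome biogenesis genes, many of them targets of MYC, gave 0 calls among 36 tested (median log2 −0.04), and their most abundant member NCL, the nucleolar protein nucleolin, averaged 3680.4 CPM in DNR and 3767 CPM in DMSO with overlapping libraries.

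**Figure D2:**
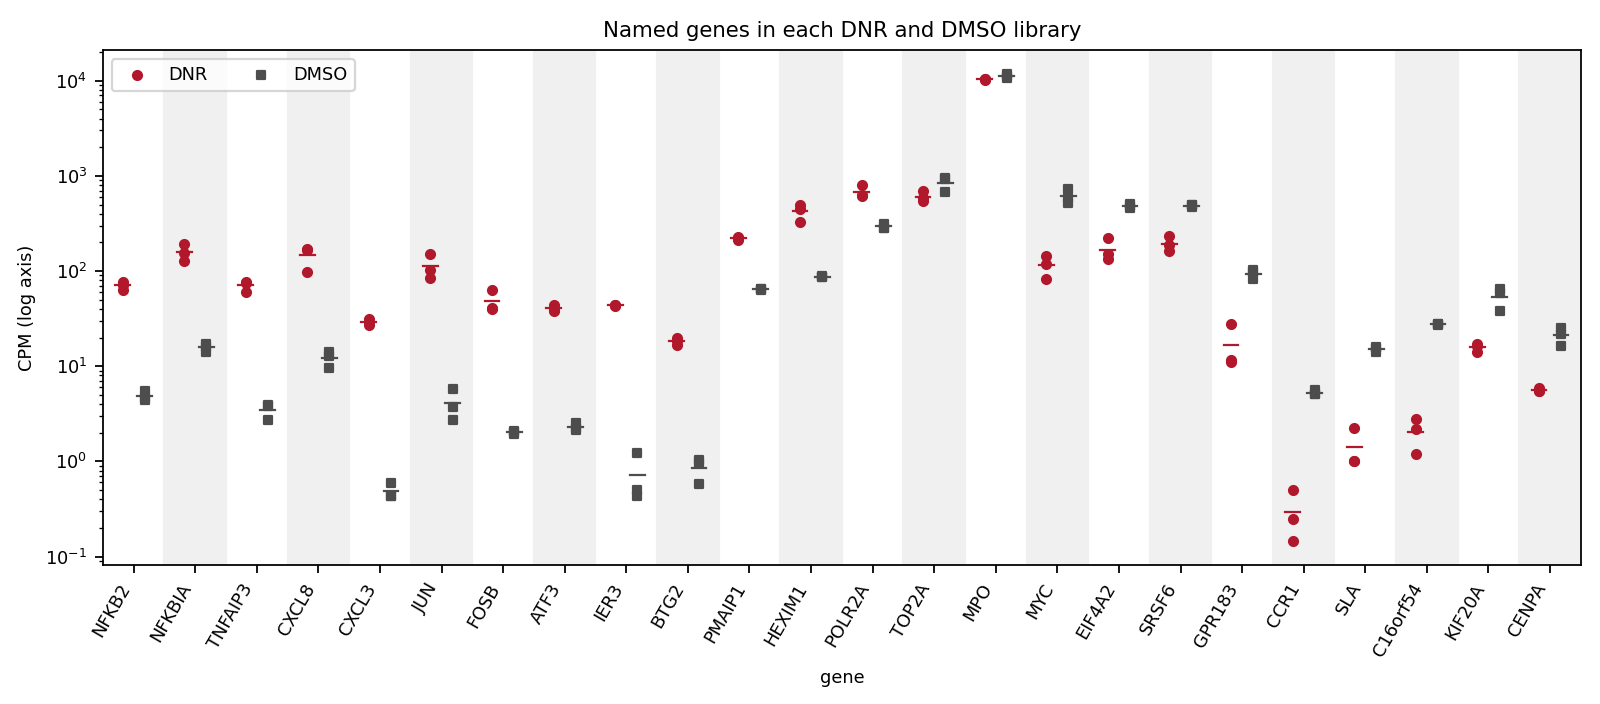
CPM (log axis) of 24 named genes in each DNR library (red circles, left of each pair) and each DMSO library (grey squares, right), with group means as short lines (n = 3 each). The groups are apart for all but TOP2A among the genes shown, and MPO, although apart, differs little.

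NF-kB is a family of dimeric transcription factors held in the cytoplasm by IkB proteins and released when these are degraded. The genes of both its subunits and its inhibitors were raised by DNR: 8 of the 15 tested members rose, 0 fell, and the median log2 change was 1.03. NFKB2, the precursor of the p52 subunit (chromosome 10, 104153867 to 104162281), had 70.5, 63.7 and 77.3 CPM in DNR, against 4.404, 4.58 and 5.43 CPM in DMSO (log2 3.87 ± 0.19, adjusted p = 2.13e-08). NFKBIA, which encodes IkB-alpha (chromosome 14, 35870285 to 35873955), had 127, 194 and 157 CPM in DNR, against 16.1, 14.1 and 17.1 CPM in DMSO (log2 3.34 ± 0.16, adjusted p = 2.13e-08). RELB, the usual partner of p52, had 27.1, 27.2 and 30.0 CPM in DNR and 3.04, 4.36 and 4.64 CPM in DMSO (log2 2.81 ± 0.19). The libraries of the groups did not overlap for these 3 genes. BCL3, an atypical IkB protein that acts in the nucleus, had 319 counts in the DNR libraries and 1 in the DMSO libraries, a ratio of 379.8 after depth (95% exact counting interval 67.7 to 15047). NFKBIZ (log2 2.06), NFKBIE (log2 1.64), NFKBID (log2 1.46) and REL (log2 1.03) rose as well, and 8 members were also called with replicates 2 and 3 only.

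Among 20 tested genes of NF-kB feedback and TRAF adaptors, 5 rose and 0 fell (median log2 0.20). TNFAIP3, which encodes the ubiquitin-editing inhibitor A20 (chromosome 6, 138188351 to 138204451), had 59.7, 74.8 and 77.3 CPM in DNR, against 3.78, 2.69 and 3.95 CPM in DMSO (log2 4.33 ± 0.20, adjusted p = 2.13e-08). BIRC3, the inhibitor of apoptosis cIAP2, had 10.98, 15.2 and 17.4 CPM in DNR, against 1.60, 1.64 and 2.06 CPM in DMSO (log2 3.04 ± 0.25), and TNFAIP2 62.5, 62.3 and 93.7 CPM in DNR, against 9.20, 8.63 and 12.5 CPM in DMSO (log2 2.85 ± 0.28). The deubiquitinase gene CYLD (log2 2.09) and TRAF4 (log2 1.06) completed the list. Every DNR library was above every DMSO library for TNFAIP3, BIRC3 and TNFAIP2.

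The bases upstream of several of these genes hold the kB consensus, the 10-base motif that NF-kB dimers bind, searched on both strands in the 250 bases before the start. The letters searched were GGGRNWYYCC, where R is A or G, N any base, W A or T, and Y C or T. In the RefSeq promoter table (GRCh38.p14) it occurred at 1828 of 35116 starts (5.21%), and 1715 of 27305 genes (6.28%) had it at any of their starts. It was found in 7 of the 12 NF-kB subunit and IkB genes with a promoter in the table (58.3%) and in 6 of the 20 feedback and TRAF genes (30.0%). Among all tested genes with a promoter in the table the share was 7.88%. It was 14.7% among genes that rose and 11.7% among genes that fell, of which the table covers 64.8% and 66.4%. BCL3, TNFAIP2 and ICAM1, which rose, had no match in the window. A search for these exact letters cannot show that a promoter lacks a kB site. The following stretches end at the base before the start and are shown because their genes, chosen after their values were seen, carry the rises described for NF-kB and chemokine genes. Capitals mark kB matches, overlapping matches run together, and the NFKB2 stretch precedes the second of its 3 listed starts.
NFKB2 (GRCh38.p14, chr10:102394453-102394577, plus strand): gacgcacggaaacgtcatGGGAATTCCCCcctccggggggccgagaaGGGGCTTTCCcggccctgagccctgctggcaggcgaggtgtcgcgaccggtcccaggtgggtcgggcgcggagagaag
NFKBIA (GRCh38.p14, chr14:35404750-35404849, minus strand): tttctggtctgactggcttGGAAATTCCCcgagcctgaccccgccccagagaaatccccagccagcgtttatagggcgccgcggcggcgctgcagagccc
TNFAIP3 (GRCh38.p14, chr6:137867174-137867258, plus strand): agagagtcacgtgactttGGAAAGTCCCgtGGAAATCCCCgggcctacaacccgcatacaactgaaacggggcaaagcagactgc
BIRC3 (GRCh38.p14, chr11:102317269-102317483, plus strand): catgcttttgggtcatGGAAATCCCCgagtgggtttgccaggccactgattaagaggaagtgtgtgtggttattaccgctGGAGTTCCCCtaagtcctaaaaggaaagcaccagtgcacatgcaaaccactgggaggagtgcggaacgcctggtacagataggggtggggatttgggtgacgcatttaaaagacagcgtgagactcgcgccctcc
CXCL3 (GRCh38.p14, chr4:74038690-74038784, minus strand): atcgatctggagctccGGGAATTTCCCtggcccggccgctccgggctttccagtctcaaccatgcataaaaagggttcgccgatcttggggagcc
CXCL10 (GRCh38.p14, chr4:76023498-76023687, minus strand): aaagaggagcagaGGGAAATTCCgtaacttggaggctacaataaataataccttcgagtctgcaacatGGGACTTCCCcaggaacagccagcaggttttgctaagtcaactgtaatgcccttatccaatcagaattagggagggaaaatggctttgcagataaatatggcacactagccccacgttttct
In CXCL8 the consensus had no exact match within this window, although the letters tggaatttcc in its stretch differ from it in the first base only. The AP-1 motif TGANTCA, present at 6.57% of all starts, had 1 match, given in capitals.
CXCL8 (GRCh38.p14, chr4:73740419-73740568, plus strand): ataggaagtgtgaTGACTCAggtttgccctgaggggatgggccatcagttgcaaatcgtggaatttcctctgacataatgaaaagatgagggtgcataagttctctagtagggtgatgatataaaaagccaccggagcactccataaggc
A match is a description of these letters and was not tested as a binding site.

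Cytokine and chemokine genes had the highest share of calls among the 33 gene lists. Of 22 tested genes 13 rose and 1, OSM (log2 −1.12), fell, with a median log2 change of 1.42. CXCL8, which attracts neutrophils (chromosome 4, 74606236 to 74609433), had 98.7, 168 and 171 CPM in DNR, against 13.9, 12.8 and 9.48 CPM in DMSO (log2 3.59 ± 0.28, adjusted p = 1.49e-06). CXCL3, which binds the same receptor family, had 29.1, 26.9 and 31.6 CPM in DNR, against 0.432, 0.588 and 0.433 CPM in DMSO (log2 5.92 ± 0.22). CXCL10, an attractant of T cells, had 7.23, 9.58 and 11.2 CPM in DNR, against 0.130, 0 and 0 CPM in DMSO (log2 7.44 ± 0.60), so that its change rests on a near absence in DMSO. Its 6 DMSO counts were all in replicate 1, and the fitted log2 change was 6.88 to 11.3 with a library left out, the highest without DMSO replicate 1, and is no bound. For these 3 chemokines the groups did not overlap. CCL4, an attractant of monocytes with near-identical relatives that make its counts uncertain, had 163 counts in the DNR libraries and 0 in the DMSO libraries, at least 64.7-fold higher than a floor of 3 counts summed over the DMSO group. CCL5 averaged 68 CPM in DNR and 20.6 CPM in DMSO (log2 1.73), and TNF, a main inflammatory cytokine, had 7.98, 23.9 and 16.7 CPM in DNR and 3.50, 2.85 and 3.67 CPM in DMSO (log2 2.27). With a mean of at least 1 CPM required, 7 members rose, since several of the others lay below it.

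The TNF superfamily moved in both directions, with 4 of 19 tested genes higher, 4 lower and a median log2 change of −0.30. TNFSF9, the ligand of the costimulatory receptor 4-1BB, had 6.08, 2.26 and 3.74 CPM in DNR, against 0.410, 0.433 and 0.459 CPM in DMSO (log2 3.21 ± 0.43). TNFRSF10D, a decoy receptor of TRAIL (log2 2.11), FAS, the death receptor (log2 1.397), and CD40 (log2 3.75, means under 1 CPM in both groups) also rose. TNFRSF1A, the main TNF receptor, fell to 43.2 ± 7.57 CPM in DNR, against 111 ± 3.49 CPM in DMSO (SD, n = 3 each, log2 −1.36). The ligand gene TNFSF14 had 0.115, 0.155 and 0.156 CPM in DNR, against 1.51, 1.39 and 2.27 CPM in DMSO (log2 −3.58 ± 0.32), the receptor gene TNFRSF12A 0.516 CPM in DNR and 2.37 CPM in DMSO (log2 −2.19), and TNFSF10, which encodes TRAIL, fell by a log2 value near the 2-fold minimum (−1.02).

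Adhesion genes likewise included both directions. ICAM1, a ligand of leukocyte integrins, had 6.51, 4.06 and 10.4 CPM in DNR, against 0.216, 0.155 and 0.331 CPM in DMSO (log2 4.86 ± 0.48, adjusted p = 9.94e-06). SDC4, a heparan sulfate proteoglycan, had 39.1, 28.1 and 37.4 CPM in DNR, against 3.35, 4.15 and 2.93 CPM in DMSO (log2 3.33 ± 0.19). SELPLG, the ligand of P-selectin, fell to 6.77, 7.82 and 7.64 CPM in DNR, against 17.9, 15.4 and 22.4 CPM in DMSO (log2 −1.33 ± 0.15), and the integrin subunit gene ITGA5 averaged 68.1 CPM in DNR and 167 CPM in DMSO (log2 −1.29). None of these 4 overlapped between groups, and the other 19 of 23 tested members were not called.

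AP-1 is formed by JUN and FOS proteins, and its genes are switched on by MAP kinases. Of 24 tested AP-1 and ATF genes, 6 rose and 0 fell, with a median log2 change of 0.14. JUN (chromosome 1, 59242517 to 59249720) had 85.5, 151 and 102 CPM in DNR, against 3.69, 5.76 and 2.73 CPM in DMSO (log2 4.81 ± 0.31, adjusted p = 3.95e-07). FOSB had 63.8, 40.1 and 41.0 CPM in DNR, against 1.92, 2.104 and 2.04 CPM in DMSO (log2 4.58 ± 0.30), and the stress-induced factor ATF3 44.3, 38.1 and 39.2 CPM in DNR, against 2.27, 2.14 and 2.55 CPM in DMSO (log2 4.12 ± 0.26). The lowest DNR library of each stood well above the highest DMSO library. FOS (log2 3.10), JUNB (log2 2.22) and MAFF (log2 1.83) were the other calls, and the same number was called with replicates 2 and 3 only.

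Of 26 tested EGR, NR4A, KLF and IER genes, which respond early to stimuli, 11 rose and 0 fell (median log2 0.58). IER3, which limits apoptosis (chromosome 6, 30710976 to 30712325), had 43.6, 43.0 and 44.1 CPM in DNR, against 0.497, 1.24 and 0.433 CPM in DMSO (log2 5.97 ± 0.30, adjusted p = 3.24e-08). The zinc finger factor EGR3 had 5.45, 4.84 and 3.49 CPM in DNR, against 0.302, 0.248 and 0.255 CPM in DMSO (log2 4.07 ± 0.25), and EGR2 2.36, 3.94 and 1.65 CPM in DNR, against 0.410, 0.279 and 0.229 CPM in DMSO (log2 3.08 ± 0.50). IER3 varied little among the DNR libraries, whereas EGR2 differed by more than 2-fold among them. EGR1 and IER5 were the most abundant of the members that rose, at 109 and 115 CPM in DNR, against 19.0 and 18.5 CPM in DMSO. Among other strong rises outside the lists, the small GTPase gene RND1 had 17.7, 10.4 and 13.6 CPM in DNR, against 0.432, 0.650 and 0.663 CPM in DMSO (log2 4.59 ± 0.30), and the kinase gene SGK1 12.8, 7.29 and 12.4 CPM in DNR, against 0.561, 0.495 and 0.561 CPM in DMSO (log2 4.31 ± 0.38).

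Single genes that damp these signals rose, while most members of their lists were not called. Of 18 tested MAP kinase phosphatase and Sprouty genes, 4 rose and 0 fell (median log2 0.15): DUSP10 (37.1 CPM in DNR, 12.8 CPM in DMSO, log2 1.53 ± 0.11), DUSP5 (log2 1.37 ± 0.18), DUSP16 (log2 1.06 ± 0.12) and DUSP1 (log2 2.95 ± 0.35, means under 1 CPM in both groups). DUSP16 lay close to the 2-fold minimum and passed under it without DMSO replicate 1. Of 26 tested regulators of mRNA decay 2 rose and 1 fell (median log2 −0.04). ZC3H12A, the endonuclease Regnase-1, had 42.1, 50.9 and 49.2 CPM in DNR, against 9.22, 11.1 and 10.3 CPM in DMSO (log2 2.22 ± 0.15), and ZFP36, tristetraprolin, 14.7, 14.6 and 13.6 CPM in DNR, against 4.71, 5.76 and 4.38 CPM in DMSO (log2 1.53 ± 0.23). The related ZFP36L2 fell to 91.2, 119.8 and 102 CPM in DNR, against 246, 213 and 240.2 CPM in DMSO (log2 −1.16 ± 0.14), so that members of the same protein family moved in opposite directions.

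Antiproliferative and growth arrest genes rose in 9 of 24 tested cases, with 0 lower and a median log2 change of 0.65. BTG2 had 16.9, 19.6 and 18.5 CPM in DNR, against 0.583, 1.02 and 0.969 CPM in DMSO (log2 4.43 ± 0.25, adjusted p = 1.09e-07). GADD45B, a stress sensor that activates MAP kinase signalling, had 51.8, 27.5 and 43.3 CPM in DNR, against 4.94, 5.79 and 6.14 CPM in DMSO (log2 2.86 ± 0.29), and the kinase gene PLK2 10.6, 7.20 and 8.14 CPM in DNR, against 1.08, 1.70 and 1.17 CPM in DMSO (log2 2.73 ± 0.23). These 3 genes did not overlap between groups. CDKN1A, the p21 inhibitor of cyclin-dependent kinases, rose by a log2 of 2.74 but remained at 0.649 CPM in DNR, against 0.0974 CPM in DMSO. In the BCL2 family PMAIP1, the pro-apoptotic protein NOXA, was the only call of 18 tested genes, with 229.8, 209 and 219.9 CPM in DNR, against 65.2, 64.2 and 62.9 CPM in DMSO (log2 1.78 ± 0.07, adjusted p = 6.89e-09). Its antagonist MCL1, also chosen after its values were seen, was at 576 ± 25.6 CPM in DNR and 377 ± 24.4 CPM in DMSO (SD, n = 3 each), a log2 change of 0.61 ± 0.07 that stayed under the 2-fold minimum.

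**Figure D3:**
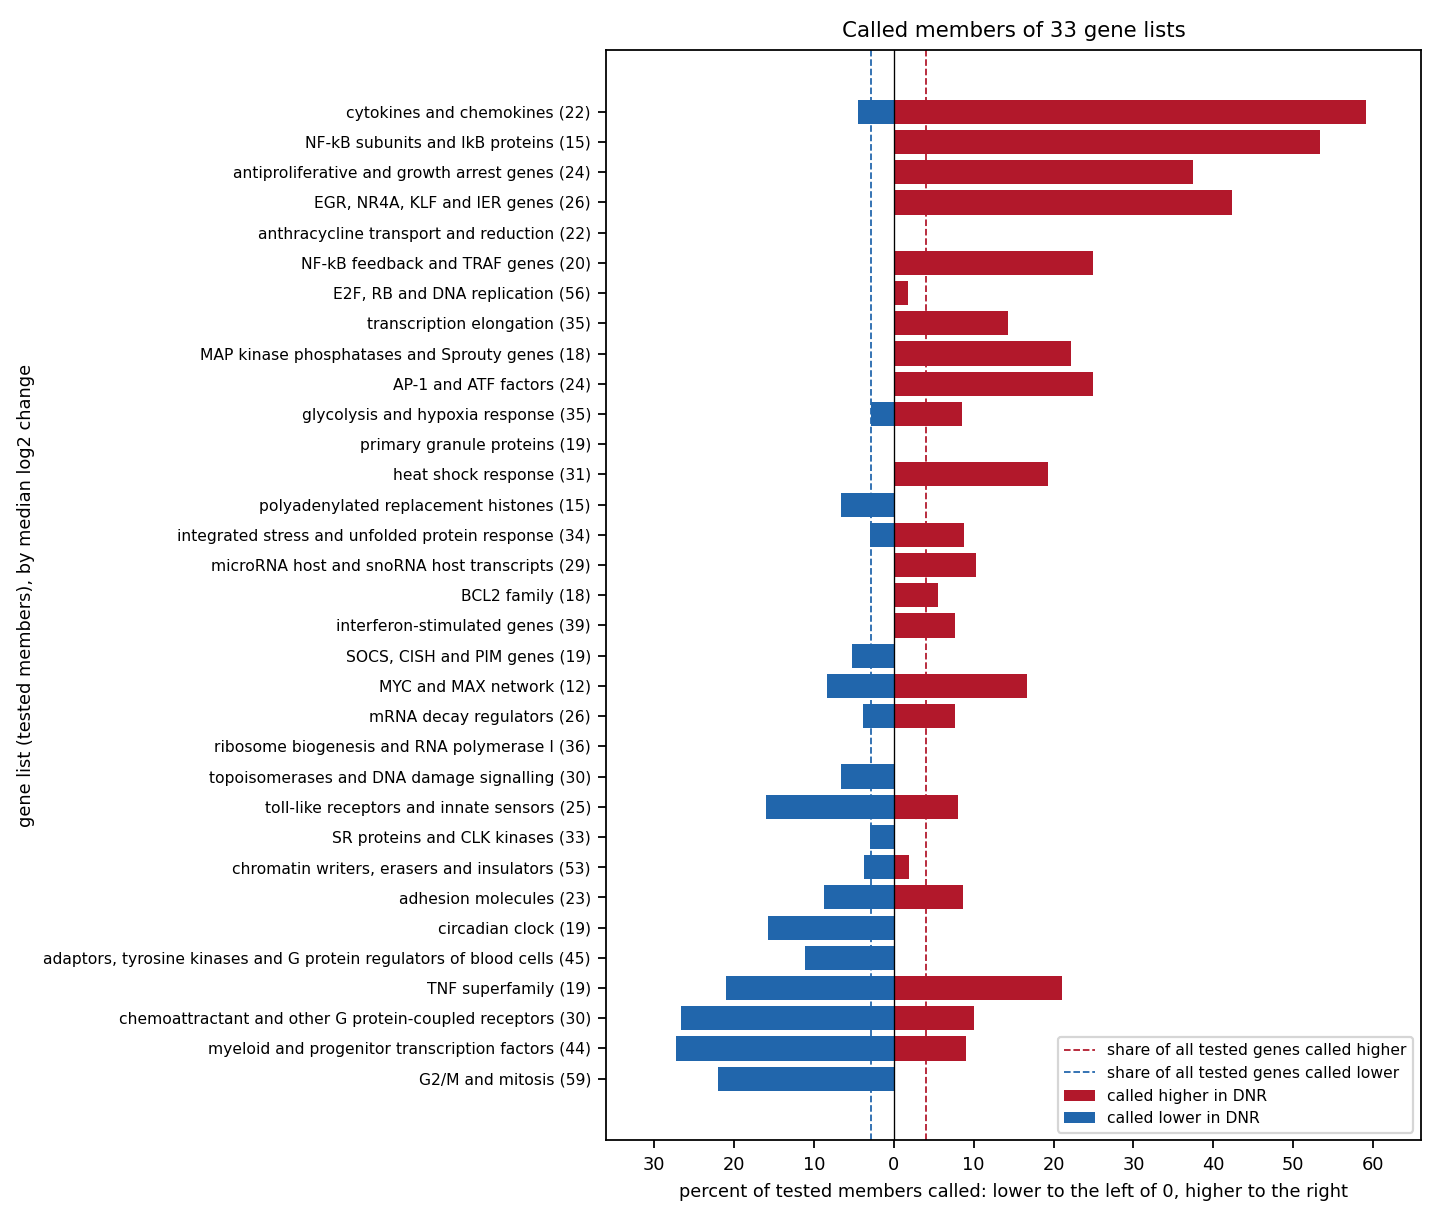
Percent of the tested members of each of 33 gene lists that rose (red, to the right) or fell (blue, to the left) in DNR relative to DMSO, ordered by median log2 change, with the number tested in brackets. Dashed lines give the shares among all tested genes, 4.07% higher and 2.91% lower. Cytokine and NF-kB genes are at the top and G2/M genes at the bottom.

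Among the transcripts that fell, receptors of chemoattractants stood out by size. Of 30 tested G protein-coupled receptor genes, 8 fell, 3 rose and the median log2 change was −0.38. CCR1, a receptor of inflammatory chemokines, had 0.144, 0.248 and 0.499 CPM in DNR, against 5.12, 5.08 and 5.66 CPM in DMSO (log2 −4.15 ± 0.31, adjusted p = 9.76e-07). CCR2, the receptor of CCL2, had 0.0865, 0.434 and 0.156 CPM in DNR, against 3.58, 4.92 and 3.59 CPM in DMSO (log2 −4.15 ± 0.40). GPR183, a receptor of oxysterols that guides immune cells, was the more abundant with 11.5, 27.8 and 11.01 CPM in DNR, against 102, 98.3 and 81.5 CPM in DMSO (log2 −2.49 ± 0.43). No DNR library reached any DMSO library for these receptors, and the log2 change of CCR2 was −5.03 without DNR replicate 2. CCR7, which directs cells to lymph nodes, fell to 1.41 ± 0.551 CPM in DNR, against 8.28 ± 0.588 CPM in DMSO (SD, n = 3 each), and the purine receptor gene P2RY2 to 28.2 ± 7.37 CPM in DNR, against 128 ± 3.85 CPM in DMSO. GPR132 (log2 −2.71) and GPR65 (log2 −1.005) were among the other falls. CXCR4, the receptor that retains cells in bone marrow, moved the other way with 216, 178 and 194 CPM in DNR, against 67.1, 66.7 and 63.3 CPM in DMSO (log2 1.58 ± 0.12), as did PTGER4 (log2 1.44).

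Adaptors and G protein regulators of blood cells included some of the deepest falls, although 40 of 45 tested members were not called. C16orf54, a transmembrane protein gene of leukocytes (chromosome 16, 29753784 to 29757311), had 1.18, 2.76 and 2.18 CPM in DNR, against 27.7, 27.1 and 27.8 CPM in DMSO (log2 −3.76 ± 0.31, adjusted p = 2.10e-06). SLA, an adaptor that lowers receptor signalling, had 1.01, 2.26 and 0.998 CPM in DNR, against 15.4, 14.1 and 15.9 CPM in DMSO (log2 −3.41 ± 0.30), and TAGAP, a GTPase-activating protein gene, 1.30, 4.47 and 2.31 CPM in DNR, against 20.6, 19.7 and 20.4 CPM in DMSO (log2 −2.92 ± 0.35). In all 3 the DMSO libraries lay close together and DNR replicate 2 was the highest of the DNR libraries. RGS14 (log2 −2.06) and RHOH (log2 −1.39) fell too, and 38 of the 45 members had a log2 change below 0 (median −0.28). Further deep falls outside this list were those of USP44, a deubiquitinase (5.15 ± 0.908 CPM in DNR, 34.8 ± 5.37 CPM in DMSO, SD, n = 3 each), SH2D3C (log2 −2.55), FAM212A (log2 −3.19) and UBXN10 (log2 −2.48).

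Of 25 tested toll-like receptors and innate sensors, 2 rose and 4 fell (median log2 −0.12). IFIH1, the cytosolic RNA sensor MDA5, had 43.5, 41.8 and 43.2 CPM in DNR, against 11.6, 11.5 and 11.7 CPM in DMSO (log2 1.89 ± 0.09, adjusted p = 2.13e-08), with hardly any spread within the groups. MB21D1, the DNA sensor cGAS, also rose (log2 1.17). NLRP3, an inflammasome sensor, had 1.12, 3.13 and 1.68 CPM in DNR, against 11.1, 9.28 and 10.5 CPM in DMSO (log2 −2.38 ± 0.35), and TLR4, the receptor of bacterial endotoxin, 8.68, 16.4 and 12.2 CPM in DNR, against 40.6, 34.8 and 36.1 CPM in DMSO (log2 −1.58 ± 0.22). TLR3 (log2 −1.60) and TLR9 (log2 −1.42) fell too. Of 39 tested interferon-stimulated genes 3 rose (7.69%, beside 6.98% of all tested genes called), and the median was 0.01. They were IFI6 (log2 1.25), OASL (log2 1.52, means under 1 CPM in both groups) and TAP1 (log2 1.00), the last at the 2-fold minimum. Without DNR replicate 3 or without DMSO replicate 1 the count was 1.

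Transcription factors of myeloid cells and progenitors fell more often than they rose, with 12 of 44 tested genes lower, 4 higher and a median log2 change of −0.53. MYB, which maintains progenitors (chromosome 6, 135502446 to 135540311), had 156, 196 and 167 CPM in DNR, against 429, 372 and 387 CPM in DMSO (log2 −1.20 ± 0.15, adjusted p = 6.12e-05). IKZF1, the factor Ikaros, had 50.7, 69.4 and 46.8 CPM in DNR, against 186, 181 and 160.4 CPM in DMSO (log2 −1.66 ± 0.16), and GATA2, a factor of stem and progenitor cells, 11.1, 16.2 and 12.3 CPM in DNR, against 58.2, 69.9 and 59.7 CPM in DMSO (log2 −2.25 ± 0.21). CEBPA, a driver of granulocytic differentiation, fell to 60.4 ± 9.96 CPM in DNR, against 144 ± 12.9 CPM in DMSO (SD, n = 3 each), and TRIB1, which promotes degradation of its protein, to 81.9 ± 4.93 CPM in DNR, against 198 ± 13.01 CPM in DMSO. The other falls were those of NFE2 (log2 −3.36), ERG (log2 −2.74, means under 1 CPM in both groups), HES1 (log2 −2.30, −3.31 without DNR replicate 2), LYL1 (log2 −1.86), HHEX (log2 −1.43), RUNX2 (log2 −1.30) and GFI1 (log2 −1.10). IRF7, a factor of the interferon response, rose to 15.5, 5.43 and 11.5 CPM in DNR, against 1.14, 1.39 and 0.994 CPM in DMSO (log2 3.21 ± 0.50), with an almost 3-fold range among the DNR libraries, and IRF1 (log2 1.27), MYBL1 (log2 2.13) and BCL6 (log2 1.19) rose as well. The corepressor gene IRF2BP2 and MBP were among the largest losses in CPM, at 80.8 and 79.1 CPM in DNR, against 298 and 205 CPM in DMSO. The primary granule proteins that define the line gave 0 calls among 19 tested genes (median log2 0.11), and MPO, myeloperoxidase, was at 10322 ± 201 CPM in DNR and 11264 ± 593 CPM in DMSO.

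Nearly all genes of G2/M and mitosis had lower levels in DNR. Of 59 tested genes 13 fell, 0 rose and 56 had a log2 change below 0, with a median of −0.56. KIF20A, a kinesin of cytokinesis (chromosome 5, 137514408 to 137523412), had 17.1, 13.99 and 16.2 CPM in DNR, against 58.7, 38.5 and 64.2 CPM in DMSO (log2 −1.77 ± 0.19, adjusted p = 1.79e-05). CENPA, the histone H3 variant of centromeres (chromosome 2, 26987157 to 27023935), had 5.51, 5.83 and 5.52 CPM in DNR, against 21.8, 16.4 and 25.2 CPM in DMSO (log2 −1.91 ± 0.19), and PSRC1, a microtubule-binding protein of the spindle, 4.76, 5.77 and 6.70 CPM in DNR, against 21.8, 17.2 and 28.2 CPM in DMSO (log2 −1.97 ± 0.23). In each of these DMSO replicate 2 was the lowest DMSO library and still lay above every DNR library. PLK1, the main mitotic kinase, fell to 45.6 ± 6.22 CPM in DNR, against 113 ± 19.5 CPM in DMSO (SD, n = 3 each), and CCNF (log2 −1.67), PIF1 (log2 −1.68), KIF23 (log2 −1.50), CENPE (log2 −1.19), ANLN (log2 −1.16), ARHGAP11A (log2 −1.13), BUB1B (log2 −1.12), KIF18A (log2 −1.03) and HJURP (log2 −1.004) were the others. With replicates 2 and 3 only, 9 members fell. In bulk RNA, fewer cells in G2/M and less of these transcripts per cell cannot be told apart.

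E2F and replication genes, which peak earlier in the cell cycle, did not share this direction. Of 56 tested genes 1 rose, 0 fell and 40 had a log2 change above 0 (median 0.18). The call was E2F1, the activator of S phase genes, with 149, 146 and 148 CPM in DNR, against 58.8, 74.2 and 60.9 CPM in DMSO (log2 1.19 ± 0.09, adjusted p = 1.35e-06). MCM5, a subunit of the replicative helicase chosen after its values were seen, was at 526 ± 8.06 CPM in DNR and 354 ± 31.0 CPM in DMSO (SD, n = 3 each), under the 2-fold minimum.

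Promoters of G2/M genes commonly hold a CHR element, TTTGAA, and CCAAT boxes, CCAAT, through which the DREAM complex and NF-Y act on them. In the 250 bases before any listed start, on both strands, 26 of the 50 G2/M genes with a promoter (52.0%) held the CHR letters, against 16.1% of all 27305 genes of the table, and 43 (86.0%) held a CCAAT box, against 37.0%. Among the 13 that fell, 9 held the CHR letters and 9 a CCAAT box, and 0 of the 50 held the kB consensus. The CHR match is given in capitals for 2 genes that fell, in the stretch that ends at the base before the start.
CENPA (GRCh38.p14, chr2:26785996-26786055, plus strand): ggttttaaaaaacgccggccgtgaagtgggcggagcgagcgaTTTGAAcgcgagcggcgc
PLK1 (GRCh38.p14, chr16:23678829-23678888, plus strand): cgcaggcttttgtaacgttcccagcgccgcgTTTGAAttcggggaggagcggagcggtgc

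**Figure D4:**
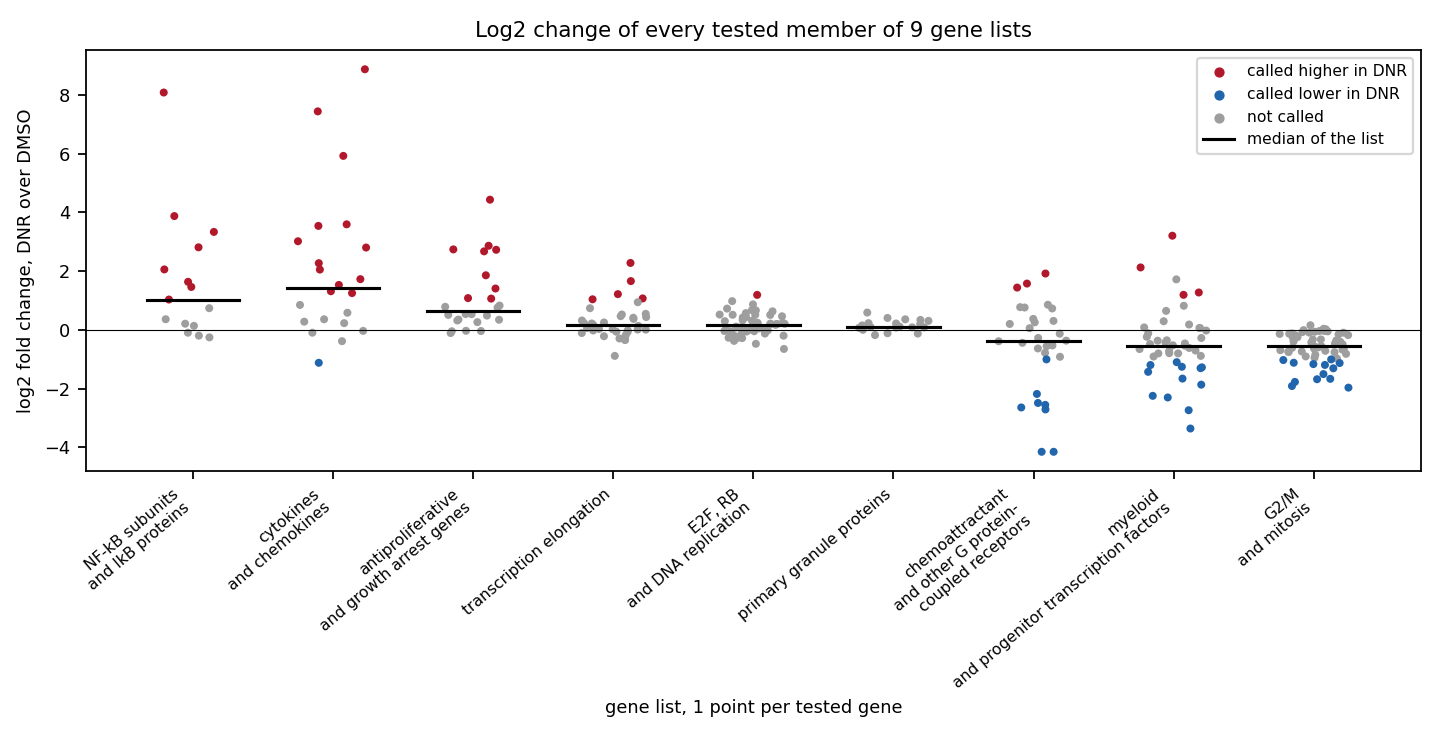
Log2 fold change of DNR over DMSO for every tested member of 9 gene lists, 1 point per gene, red where it rose, blue where it fell and grey where not called, with the list median as a line. NF-kB and cytokine genes reach high values (those of BCL3 and CCL4 are fitted on almost no reads in DMSO and are not bounds), granule genes stay near 0, and G2/M genes lie almost wholly below 0.

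The targets of DNR were themselves not called. TOP2A, the topoisomerase II of dividing cells, had 579, 547 and 688 CPM in DNR and 928, 678 and 940.2 CPM in DMSO (log2 −0.49 ± 0.14, adjusted p = 0.0189), with 1 DNR library above the lowest DMSO library. TOP2B, the form of resting and dividing cells, had 454, 426 and 484 CPM in DNR and 529, 446 and 523 CPM in DMSO (log2 −0.13 ± 0.09, adjusted p = 0.274). Of 30 tested topoisomerase and DNA damage signalling genes 2 fell and 0 rose (median log2 −0.11), 6.67% called beside 6.98% of all tested genes. LIG4, the ligase of non-homologous end joining, had 9.92, 9.99 and 10.1 CPM in DNR, against 28.4, 29.3 and 27.4 CPM in DMSO (log2 −1.51 ± 0.11, adjusted p = 1.26e-06), and was very even within groups. H2AFX, which encodes the histone variant that is phosphorylated at breaks, passed only narrowly (log2 −1.06 ± 0.37, adjusted p = 0.0452), and its adjusted p was 0.0516 to 0.128 with any of the 6 libraries left out. The 22 tested genes of anthracycline transport and reduction gave 0 calls, with a median log2 change of 0.33, and catalase, CAT, was at 369 ± 21.1 CPM in DNR and 374 ± 16.3 CPM in DMSO (SD, n = 3 each).

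In the main fit heat shock genes rose more often than genes of the unfolded protein and translation stress responses. This difference was not tested and did not hold in every fit. Of 34 tested genes that answer to unfolded proteins or translation stress, 3 rose and 1 fell (median log2 0.04). PPP1R15A, which encodes the phosphatase subunit GADD34, had 56.3, 46.1 and 58.5 CPM in DNR, against 10.4, 8.85 and 9.28 CPM in DMSO (log2 2.49 ± 0.17), DDIT3, which encodes CHOP, rose by a log2 of 1.17, ATF3 was the third, and VLDLR fell (log2 −1.34 ± 0.18). The heat shock list had 6 higher and 0 lower genes among 31 tested (median log2 0.09). DNAJB4, a co-chaperone, had 46.1, 30.5 and 37.6 CPM in DNR, against 11.4, 10.6 and 12.8 CPM in DMSO (log2 1.71 ± 0.17), and BAG3 1.70, 1.27 and 1.90 CPM in DNR, against 0.389, 0.464 and 0.382 CPM in DMSO (log2 1.98 ± 0.28). HSPA1B, an inducible HSP70 that is nearly identical to HSPA1A and therefore uncertain in its counts, averaged 39.6 CPM in DNR and 13.5 CPM in DMSO. Its neighbours HSPA1A and HSPA1L rose as well. With replicates 2 and 3 only, 3 heat shock genes and 3 genes of the unfolded protein and translation stress list rose. The counts were again 3 and 3 with a mean of at least 1 CPM required. Among 35 tested glycolysis and hypoxia genes 3 rose and 1 fell: the peptide hormone gene ADM (log2 3.02 ± 0.36), EPAS1 (log2 2.41 ± 0.48, means under 1 CPM in both groups), PFKM (log2 1.25 ± 0.35) and, lower in DNR, the glucose transporter gene SLC2A3 (log2 −1.03 ± 0.20). PFKM lost its call without DNR replicate 1, DMSO replicate 1 or DMSO replicate 2 (adjusted p 0.0636 to 0.0791), and SLC2A3 without DNR replicate 1, DNR replicate 3 or DMSO replicate 2 (log2 −0.99 to −0.94).

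Clock genes fell in 3 of 19 tested cases (median log2 −0.25). BHLHE40 had 2.22, 3.57 and 3.37 CPM in DNR, against 19.7, 14.4 and 16.3 CPM in DMSO (log2 −2.46 ± 0.23), its paralog BHLHE41 4.32, 6.82 and 6.55 CPM in DNR, against 20.4, 23.7 and 22.2 CPM in DMSO (log2 −1.91 ± 0.16), and NR1D1, the nuclear receptor REV-ERB-alpha, 1.35, 2.23 and 2.03 CPM in DNR, against 8.20, 9.01 and 8.69 CPM in DMSO (log2 −2.21 ± 0.26). All 3 encode transcriptional repressors, and none overlapped between groups. In the cytokine feedback genes 1 of 19 tested fell, CISH (log2 −1.71 ± 0.42), 5.26% called beside 6.98% of all tested genes. Of 53 tested chromatin writers, erasers and insulators, HIVEP1, a zinc finger protein that binds kB-like sites, rose to 22.5 ± 3.02 CPM in DNR, against 6.91 ± 0.268 CPM in DMSO (SD, n = 3 each), while the Polycomb gene CBX8 (log2 −1.13 ± 0.27) and SETD2, which methylates lysine 36 of histone H3 (log2 −1.003 ± 0.13), fell close to the 2-fold minimum. Both lost the call without DNR replicate 1 (log2 −0.99 and −0.91), and SETD2 also without DNR replicate 3 (log2 −0.98) or DMSO replicate 1 (log2 −0.97). Of the 53 members 40 had a log2 change below 0 (median −0.23), while 51.2% of all tested genes had one above 0. The 5.66% of members called lay below the 6.98% of all tested genes. Of 29 tested hosts of microRNAs and snoRNAs, MIRLET7BHG (log2 1.58 ± 0.29), MIR22HG (log2 1.81 ± 0.56, means under 1 CPM in both groups) and SNHG9 (log2 1.00 ± 0.20) rose, and without DMSO replicate 2 the count was 1.

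Long noncoding genes rose more often than coding genes and pseudogenes less often, differences that were described and not tested. By the biotypes of the GENCODE annotation on GRCh37, which gave a position to 12332 of the 13696 tested genes (90.0%), 53 of 551 long noncoding genes rose (9.62%) and 14 fell (2.54%), whereas 395 of 11023 protein-coding genes rose (3.58%) and 326 fell (2.96%). Of 733 pseudogenes 13 rose (1.77%) and 9 fell (1.23%). The median level in DMSO was 1.09 CPM for long noncoding genes, 29.7 CPM for protein-coding genes and 0.683 CPM for pseudogenes. Of all tested genes under 1 CPM in DMSO 11.9% rose, and the part of the level in these shares was not tested. Among 376 tested genes whose symbol marks an antisense transcript, 45 rose and 10 fell, and 11.97% higher compares with 4.07% over all genes. These transcripts are mostly rare. Of the 177 antisense transcripts under 1 CPM in DMSO 16.9% rose, against 11.9% of the 2514 tested genes under that level. Both shares carry the limit of the filter given above. Without DNR replicate 1, 27 antisense genes rose, and with replicates 2 and 3 only 19 did. All genes that rose numbered 400 and 304 in these fits, which hold fewer libraries, against 557 in the main fit. In proportion the drop from 45 antisense genes was larger than that of all genes in both fits, and its cause was not tested.

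Of 326 antisense transcripts with a tested partner gene, 10 partners rose (3.07%) and 19 fell (5.83%). Among the 38 of these transcripts that rose, 0 partners rose and 0 fell, numbers too small to set apart from those shares. Among the 10 that fell, 2 partners fell, those of CEBPA-AS1 and TRG-AS1. EMC3-AS1, PARD6G-AS1 and ASB16-AS1, chosen after their values were seen as the most abundant in DNR, serve as examples. EMC3-AS1 had 92.9, 58.0 and 71.4 CPM in DNR, against 31.2, 29.6 and 34.1 CPM in DMSO (log2 1.23 ± 0.19), and EMC3 a log2 change of 0.48. PARD6G-AS1 had 32.8, 26.2 and 28.4 CPM in DNR, against 8.01, 8.45 and 9.76 CPM in DMSO (log2 1.74 ± 0.14), and PARD6G a log2 change of −0.23. ASB16-AS1 had 29.4, 17.0 and 25.8 CPM in DNR, against 7.84, 7.46 and 7.85 CPM in DMSO (log2 1.64 ± 0.25), while ASB16 stayed under 1 CPM. The sources used here do not give the strand setting of the counter, so that reads of a transcript and its antisense partner may not be fully separated. LINC genes rose in 13 of 180 tested cases, but in 5 without DNR replicate 1 or without DMSO replicate 1 and in 7 without DMSO replicate 3. The highest count with a library left out was 18, and with replicates 2 and 3 only it was 3.

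Short genes had higher and long genes lower median changes. This is a description across genes, which are not independent replicates. In 5 bins of equal number by genomic span, the median log2 change was 0.12 for genes up to 8.83 kb, then 0.08, 0.03 and −0.02, and −0.13 for genes of 91.2 kb and longer. The share of genes that rose was 6.36% in the shortest bin and 1.42% in the longest, and the share that fell 3.85% and 1.99%. In each DNR library set against the DMSO mean the longest genes had the lowest median, at −0.15, −0.11 and −0.13 in replicates 1, 2 and 3. The shortest had the highest in replicates 1 and 3, at 0.11 and 0.11, whereas in replicate 2 their median was 0.04 and that of the second bin 0.05. Within protein-coding genes, 11.9% of the shortest and 3.17% of the longest were called. The median span was 15.3 kb for genes that rose, 19.1 kb for those that fell and 30.5 kb for all tested genes. The shortest bin also had the lowest median level, 5.55 CPM in DMSO against 24.2 to 34.7 CPM in the others, and the part of the level in the share of calls was not tested. Cytosolic ribosomal protein genes, which are short and abundant, had a median log2 change of 0.18 with 0 calls among 75 tested and 71 above 0.

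**Figure D5:**
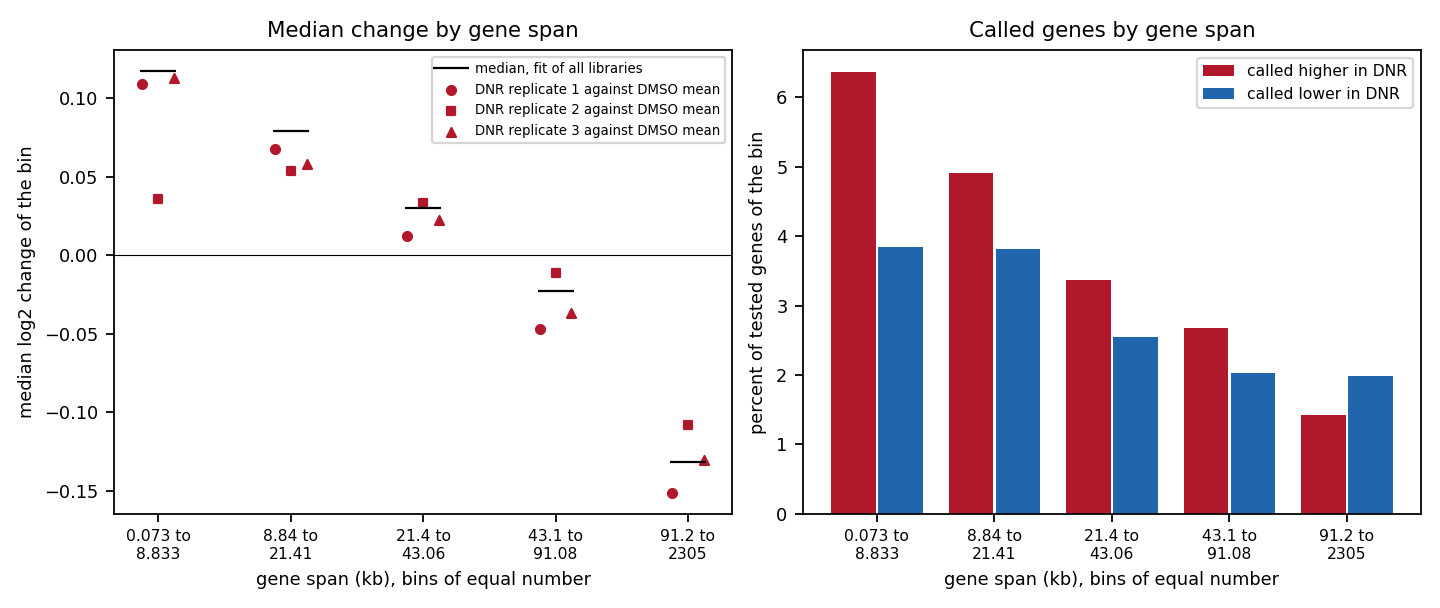
Left, median log2 fold change of DNR over DMSO in 5 bins of tested genes by span in kb (2466 or 2467 genes each), from the fit (line) and for each DNR library against the DMSO mean (points). Right, percent of the genes of each bin that rose (red) or fell (blue). The medians run from 0.12 in the shortest to −0.13 in the longest bin, and both shares are lower in the longest bin than in the shortest.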

How the data were processed

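Polyadenylated RNA was sequenced in 12 libraries, of which 3 DNR and 3 DMSO libraries are described. TopHat2 2.1.1, which calls Bowtie2 2.3.5.1, was used by the authors for mapping to hg19 (GRCh37). Their counter was HTSeq 0.11.1, and the deposited table gives its raw counts for 42157 genes. The sources used here do not give the strand setting. Library sizes and tests leave out the 5 summary lines that HTSeq appends. Of the reads, 65.3% to 67.4% were in genes and 26.6% to 28.5% had more than 1 alignment. A deposited table of counts divided by size factors (signal) and the authors' deposited table of comparisons (log2 fold changes and p-values) were not used here.

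The 13696 genes that passed filterByExpr by group (minimum count 10, minimum total 15) were tested with the edgeR 4.0.16 quasi-likelihood test in R 4.3.3, with TMM factors (0.972 to 1.03 in the 6 libraries) and a group term over all 12 libraries. Genes were called at an adjusted p below 0.05 over all tested genes and a change of at least 2-fold. With 3 libraries against 3 the smallest p of an exact permutation test is 0.1, and it was not applied. Libraries of a group differed by more than sampling noise. Reads carry no molecular identifiers, so intervals and the floor of 3 counts over a group reflect counting error alone, and p-values measure the spread between these replicates. Standard errors are the log2 change divided by the root of the F statistic. The code was checked on simulated data.

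The 100 named genes were TOP2A and TOP2B, up to 3 called members of each of 33 lists with the largest change and at least 1 CPM (or, without a call, the most abundant member), the 10 largest gains and losses in CPM, and the 10 largest rises and falls in log2 among called genes with at least 5 CPM and libraries that do not overlap. Other called list members are given by value, apart from a few that are not reported here. The members, lists and rule were chosen with earlier results of these data known. Spans and biotypes came from GENCODE on GRCh37, promoters from RefSeq (GRCh38.p14). Alternatives were DESeq2 1.42.0, limma 3.58.1 voom, other scalings, filters, fold minimums, a replicate block, the 6 libraries only and leaving out libraries.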

Additional observations from a re-analysis of the deposited data

How the results depend on the processing

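The counts of genes that rose and fell (557 and 399) kept within 1.5 times under DESeq2, median-of-ratios or library size scaling, no count filter, limma voom and the 6 libraries alone. With a mean of at least 1 CPM 337 rose, from 11255 genes tested, and 270 fell. Without a fold minimum 1953 rose and 2155 fell, with a fold of at least 1.5 the counts were 1004 and 995, with the 2-fold minimum tested in the model 147 and 70, and with replicates 2 and 3 only 304 and 264. Leaving out 1 library gave 400 to 674 higher and 303 to 458 lower genes. The share of higher genes among the calls was 58.3% with TMM or median-of-ratios factors, 55.0% by library size only and 47.5% without a fold minimum.

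Same-numbered DNR and DMSO libraries deviated together with r of 0.0852, 0.249 and 0.336 across genes, and each library correlated best with its own number. Replicate 1 had the highest mitochondrial share in every group, although the first r was low. The main fit used no replicate block, so a shared number did not enter it, and the block is given as an alternative. With the replicate block 599 genes rose and 429 fell (517 and 403 within the 6 libraries), and among the named genes the block changed 1 call, that of TAP1 (log2 1.00 with the block and 0.99 within the 6 libraries), which lies at the 2-fold minimum.

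Of 95 named genes that were called, 86 kept the call under every alternative fit at the same thresholds, and the exceptions were ARHGAP11A, CBX8, DUSP16, H2AFX, PFKM, SETD2, SLC2A3, SNHG9 and TAP1. Of all 100, 98 kept their direction. The exceptions were not called: CAT (log2 −0.0646 to 0.0298 with a library left out, above 0 without DNR replicate 3) and NCL (−0.171 to 0.0418, above 0 without DNR replicate 1 or 3, and 0.0705 with replicates 2 and 3 only). Of 816 recomputed counts of list and family members at the same thresholds, 728 were within 1.5 times of the count reported.

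The median log2 change by gene span moved with library size only to 0.0482, −0.000324, −0.0540 and −0.162 in the second to the fifth bin, and with replicates 2 and 3 only to 0.0621, 0.0457 and 0.0184 in the first 3 bins. The order of the bins stayed the same in each, and the cause was not tested. Depth limits the 298 genes that rose from under 1 CPM in DMSO.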

Other observations

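The effect of DNR was also fitted in cells that received ML-792, only to see whether a named change differed there. The interaction passed an adjusted p of 0.05 for 0 of the 100 named genes (edgeR quasi-likelihood test), and the smallest adjusted p was 0.226, that of IER3. An unadjusted p under 0.05 was found for 27, and the share over all tested genes is not given here. Most named genes were picked by their change between DNR and DMSO, which enters the interaction with opposite sign. The count of 27 therefore cannot show that their changes differ with ML-792.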
